A study of Mus musculus with 9 samples.

Results

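Pcdh15, Ptprr and Anks1b are 3 of the 22353 gene symbols in a table of transposon insertion sites from Lazy Piggy mouse medulloblastomas of the SHH (sonic hedgehog) subgroup. They lie on chromosome 10, megabases from the point around which hops from a donor array on that chromosome were densest, called the hop centre here. The 3 genes were selected on measured values: their called IR insertions came from tumours with tamoxifen and not from tumours without. Their counts by arm are therefore given as a description with no test. The calling rule is stated below, and uncalled IR insertions in the 3 genes were listed in tumours of both arms. The members are 5917 lines of the table with 3584654 counts, of which 2144 lines list Pcdh15, 1340 list Ptprr and 2433 list Anks1b.

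All animals compared carry the genotype lazy_piggy, and the labels name neither the promoters of the transposases nor the animals' ages. The element joins Sleeping Beauty (SB) and piggyBac (PB) transposon parts. An IR library was amplified from the SB sequence, a PB library from the PB sequence and a JX library from their boundary. The authors' sample sheet gave 72 primary tumours with tamoxifen (TAM+), 53 with the donor array on chromosome 10 and 19 with it on chromosome 7, and 47 without tamoxifen (TAM-), 37 and 10 by donor. Tamoxifen days were listed for 71 of the treated animals, from 4 to 249 with a median of 49. A further 22 animals or control DNAs were left out of the comparison, and none had a called site in the 3 genes. The animal was the replicate.

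A transposon inserted in an intron can truncate or splice into a transcript, and one near a gene can change its output, so a gene struck in several independent tumours is a usual candidate in such screens. Hops from a donor array land preferentially close to it, which makes hits on the donor chromosome more frequent than elsewhere. Pcdh15 encodes protocadherin-15, a cadherin that forms part of the tip link of hair cells and whose loss causes Usher syndrome with deafness. Ptprr encodes a receptor type protein tyrosine phosphatase that dephosphorylates MAP kinases and is expressed in Purkinje cells of the cerebellum. Anks1b encodes AIDA-1, a scaffold protein of the postsynaptic density that binds PSD-95.

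Counts per animal ranged from 295999 to 6337624 in IR, with medians of 3115000 with tamoxifen and 3144000 without. JX and PB were shallower, at medians of 441800 and 287400 counts in JX and 205000 and 217000 in PB. Calling a site in an animal required 10 or more counts and 1% or more of the counts at the animal's highest site. By this rule IR had 2311 called sites, JX had 6778 and PB had 2910, and an animal with a called site in a gene is said to be hit in it. Tumours with a called site in the 3 genes bear the letters A to R.

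In IR, Pcdh15 was hit in 5 of 72 tumours with tamoxifen (6.94%, 95% exact Clopper-Pearson interval 2.29 to 15.5%), Ptprr in 4 (5.56%, 1.53 to 13.6%) and Anks1b in 3 (4.17%, 0.868 to 11.7%). None of the 47 tumours without tamoxifen was hit in any of them. For each gene, 0 of 47 allows a share of up to 6.38% by the limit of 3 counts of the total, and up to 7.55% by the exact interval. The intervals cover counting of animals only. Of the 40 genes hit in at least 3 animals in IR, 11 were hit with tamoxifen alone, a background of 27.5%, and the 3 genes are among these 11 because the rule chose them so. The 12 hits lay in 9 tumours, 8 with the donor array on chromosome 10 and 1 with it on chromosome 7.

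Pcdh15 had 6 called IR sites in 5 tumours, spread over the gene and its flanks. Listed positions inside the gene span 73284664 to 74110766 on chromosome 10 (mm9), or 826.1 kb. Tumour A, the one with a chromosome 7 donor (33 days of tamoxifen), had 65066 counts at 73252847, 31.8 kb before the first listed position of the gene body, or 2.44% of its IR counts. The table lists a longer distance for this site, since its distances for upstream sites run to a transcript end. Within introns, tumour B had 15574 counts at 73322543 in intron 1 (0.507%) and tumour E had 26640 at 73732792 in intron 9 (0.695%). The remaining Pcdh15 sites were small. Tumour C had 279 counts in intron 1 at 73345500 (0.0943%). Tumour D had 806 in intron 4 at 73536352 and 1678 at 74172008, 61.2 kb past the gene body. No Pcdh15 site ranked above place 10 among the IR sites of its tumour.

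Ptprr had 4 called IR sites in 4 tumours, and all of them lay in the last part of the gene or just past it. Its listed body spans 115456218 to 115710215 (254.0 kb), and the sites began 207.0 kb into it. Tumour H (42 days) had 559402 counts at 115725313, 15.1 kb past the body, which was 12.8% of its IR counts and its site of rank 3. Tumour F (42 days) had 84100 counts at 115690992 in intron 9 (2.16%, rank 9). These were the pair of Ptprr sites above 5% of the tumour's highest site. Tumour G had 3772 counts at 115705579 in intron 10 (0.126%) and tumour D had 889 at 115663229 in exon 4 (0.0582%), the single exonic site among the IR sites of the 3 genes.

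Anks1b had 3 called IR sites in 3 tumours, all in introns of a body that spans 89338808 to 90435546 (1097 kb). Tumour I (67 days) had 1902937 counts at 90322128 in intron 3, 33.1% of its IR counts and its highest IR site. The same insertion was the highest site of tumour I in JX, with 276801 counts (47.8%), and in PB, with 125795 counts at 90322214 (84.2%). It held the largest share of a tumour's counts among all called sites of the 3 genes, in each kind of library. The other Anks1b sites were weak: tumour F had 7248 counts at 89572629 in intron 8 (0.186%) and tumour D had 892 at 90136244 in intron 2 (0.0584%). Intron numbers in the table come from several transcripts of a gene, so they do not run in order along it.

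**Figure D1:**
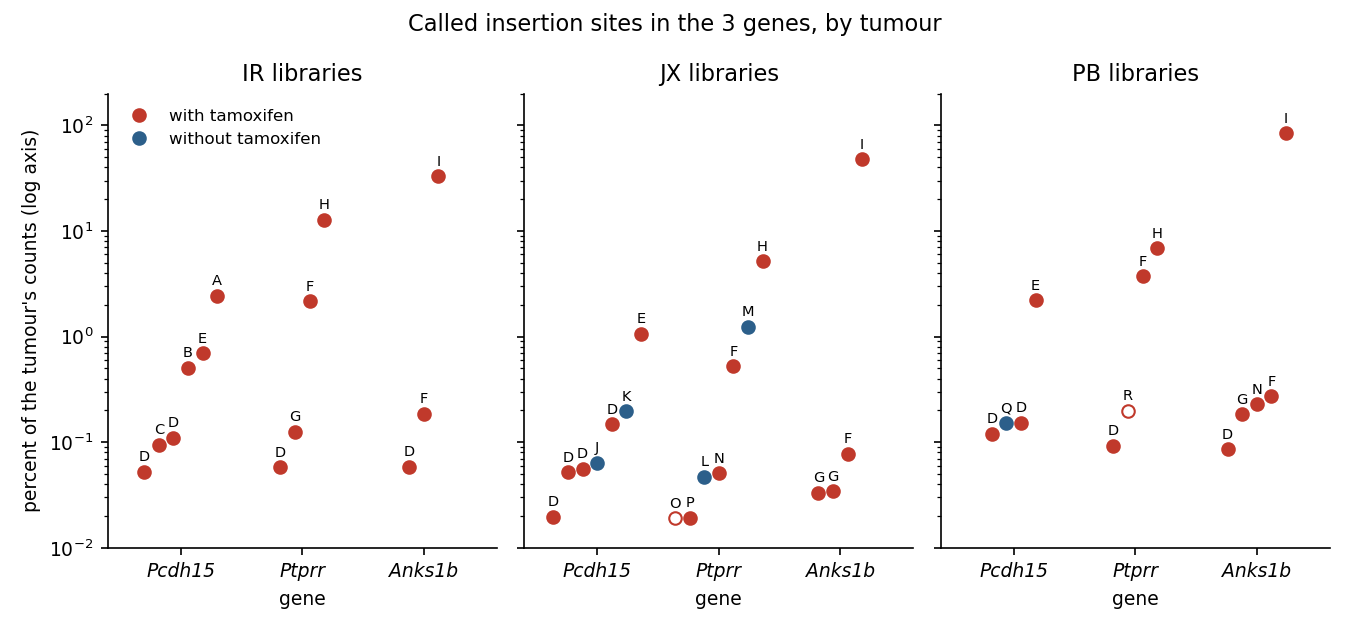
Share of the tumour's counts held by each called site of the 3 genes, on a log axis in percent, in IR, JX and PB libraries. Each point is a site with its tumour letter, red with and blue without tamoxifen, and open points are sites not credited to that tumour because another tumour held a higher share. All IR points are red, and tumour I is highest for Anks1b in each panel (33.1%, 47.8% and 84.2%).

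Several of these tumours had many called sites. Tumour D, hit in all 3 genes in IR, had 130 called IR sites, 51 of them on chromosome 10, against a median of 12.0 over the 119 tumours. It ranked second of 119 in IR and first in JX (689) and PB (187), and its 4 IR sites in the 3 genes each held at most 0.110% of its counts. Tumour C ranked first in IR with 334 called sites and had the lowest IR total, 295999 counts. Tumours H and I, which carried the largest shares, had 11 and 6 called IR sites. Without tumour D the IR counts were 4, 3 and 2 tumours for Pcdh15, Ptprr and Anks1b, all with tamoxifen.

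The absence of hits without tamoxifen at the 1% threshold is how the genes were chosen, and a 5% threshold could only keep it. It did not hold at 0.1%. At 0.1% of the highest site, 6 tumours without tamoxifen were hit in Pcdh15, 1 in Ptprr and 4 in Anks1b, against 15, 11 and 14 with tamoxifen. At 5% the counts with tamoxifen were 1, 2 and 1, and those without were 0. Just inside the 1% threshold stood the sites of tumour D, at 1.06% of its highest site for Pcdh15, 1.17% for Ptprr and 1.17% for Anks1b. Just outside it with tamoxifen were a Pcdh15 site at 0.515%, a Ptprr site at 0.614% and an Anks1b site of tumour D at 0.771%. Without tamoxifen the highest IR sites not called were 9334 counts in Pcdh15 in tumour K (0.483% of its highest site), 4567 in Ptprr (0.218%) and 666 in Anks1b (0.281%). As shares of the tumour's IR counts these sites held 0.216%, 0.105% and 0.0244%. The called sites of tumour D just inside the threshold held 0.0527% (Pcdh15), 0.0582% (Ptprr) and 0.0584% (Anks1b). The rule is relative to the highest site, which held 44.8% of the IR counts in tumour K and 4.98% in tumour D. The Pcdh15 position of tumour K, 74192817, was called in JX in the same tumour.

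**Figure D2:**
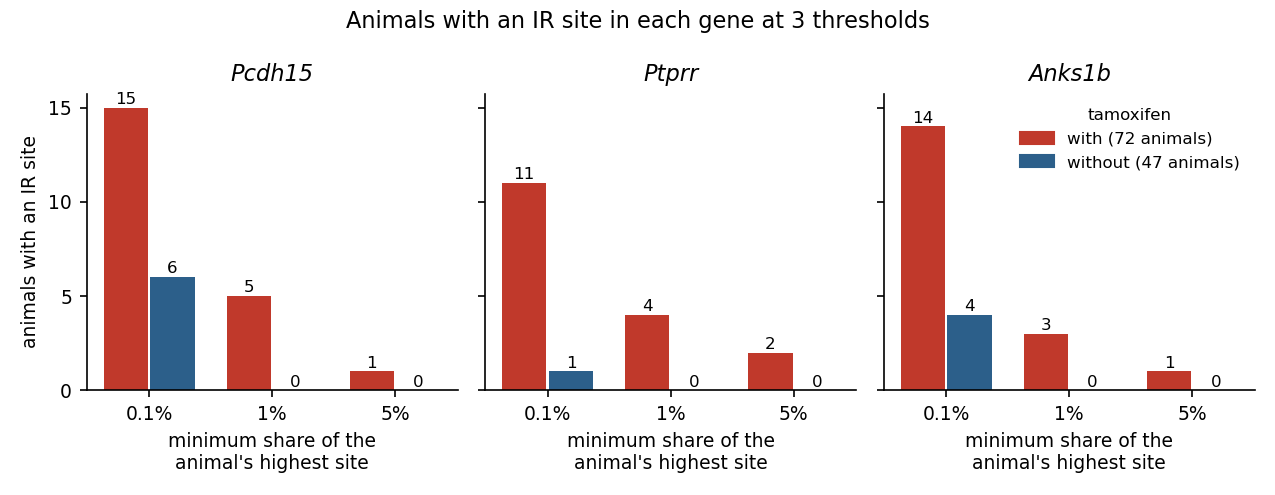
Number of animals with an IR site in each gene when a site needs at least 0.1%, 1% or 5% of the count of the animal's highest site, in red with tamoxifen (72 animals) and in blue without (47 animals). Blue bars of 6, 1 and 4 animals appear at 0.1% and none at 1% or 5%.

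In the JX libraries, 4 tumours without tamoxifen were hit in the 3 genes. With and without tamoxifen, respectively, 2 and 2 tumours were hit in Pcdh15, 4 and 2 in Ptprr and 3 and 0 in Anks1b. Among 244 genes hit in at least 3 animals in JX, 53 or 21.7% were hit with tamoxifen alone, and nothing is read from that share, since JX and IR share the animals of the rule. The clearest JX site without tamoxifen was in Ptprr: tumour M had 17314 counts at 115573132 in intron 2, 1.24% of its JX counts, with 865 IR counts at the same position. The others without tamoxifen were weak. Tumour K had 460 counts at 74192817 past Pcdh15, with 9336 IR counts within 100 bp. Tumour J had 99 in intron 2 of Pcdh15 and tumour L had 121 in intron 2 of Ptprr. The Ptprr position 115649960 of tumour N was also listed in 48 other animals, with no animal over 50% of its counts. That position and the one of tumour P (34 other animals) are the kind that is spread over animals, and without such positions Ptprr was hit in JX in 2 tumours with tamoxifen.

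In the PB libraries, 5 tumours with tamoxifen (6.94%) and 0 without were hit in Anks1b, 3 and 0 in Ptprr, and 2 and 1 in Pcdh15. The share of tamoxifen alone among the 55 genes hit in at least 3 animals in PB was 23.6% (13 genes). The PB hit without tamoxifen was tumour Q, with 240 counts at 73282458, 2.21 kb before the body of Pcdh15. The PB sites of Ptprr in tumour H (81309 counts, 6.83%) and tumour F (2530, 3.71%) and that of Pcdh15 in tumour E (21442, 2.22%) followed their IR sites at distances of 57, 73 and 21 bp. The Anks1b PB sites of tumours N (30 counts), F (186), D (1192) and G (141) had no called IR site nearby, although tumours D and G had 587 and 283 IR counts within 100 bp. Tumour F's PB site was at 89902844 in intron 12. Its called JX site in that intron, at 89902693, had 4518 IR counts within 100 bp.

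Over the 3 kinds of library, Pcdh15 was hit in 8 tumours (5 with tamoxifen, 3 without), Ptprr in 8 (6 and 2) and Anks1b in 5 (5 and 0). Among the Ptprr tumours with tamoxifen, N and P were hit only at the JX positions that are spread over animals. Tumour P had no other called site in the 3 genes. Of the 16 tumours hit in any of the 3, 11 had tamoxifen and 5 did not. Each gene was hit in all 3 kinds of library in 2 tumours, though not always at the same place. Tumour F's Anks1b sites were called at 89572629 in IR, 89902693 in JX and 89902844 in PB.

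Most IR sites of the 3 genes were seen in the other libraries too. Of their 13 called IR sites, 11 (84.6%) were accompanied by JX counts of the same tumour no more than 100 bp away and 10 (76.9%) by PB counts, against 82.3% and 62.3% of all 2311 called IR sites. With at least 10 counts required of the match, the shares were 9 of 13 (69.2%) in both JX and PB, against 78.8% and 56.9% of all called IR sites. No difference between the 3 genes and all sites was tested. A called PB site lay within 100 bp of a called IR site for 7 of them, 21 to 86 bp apart, and was listed in the opposite orientation relative to the gene in 7 of 7. Over all such pairs the orientation was opposite in 660 of 664 (99.4%). For JX the orientation was opposite in 0 of 5 pairs, against 136 of 941 (14.5%) over all such pairs.

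The main sites were also listed at low counts in other animals, mostly of the same lane. The Anks1b site of tumour I appeared in 15 other animals, all in lane 5 with it, with at most 3335 counts. The Ptprr site of tumour H appeared in 21 other animals, 14 of them in its lane, with at most 4567 counts. That maximum is the highest uncalled Ptprr count without tamoxifen given above. The part of shared lanes in these low counts was not tested.

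Orientation relative to the gene was 3 same and 3 opposite at Pcdh15 IR sites, and 4 and 3 at its JX sites (two-sided exact binomial test, adjusted p = 1.0 for both). With 6 or 7 sites no split could pass after adjustment, so nothing is concluded from these tests. In PB a gene with 6 same and 0 opposite sites had an exact binomial p = 0.03125 and an adjusted p = 0.444. This test counts sites, and sites share animals: the 6 IR sites came from 5 tumours, and 4 of the 7 JX sites came from tumour D. Ptprr had 2 same and 4 opposite JX sites, among them the spread positions of tumours N and P (exact binomial p = 0.688, adjusted p = 1.0). Other sets held under 6 sites and were not tested. In this test 1 of 14 genes passed in IR (7.14%), 0 of 34 in JX (0.0%, 1 gene at an unadjusted p under 0.05) and 0 of 17 in PB (0.0%, 1 gene). In IR, 2 of the 6 Pcdh15 sites, 3 of 4 Ptprr sites and 3 of 3 Anks1b sites were listed by the table as disrupting the coding sequence.

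**Figure D3:**
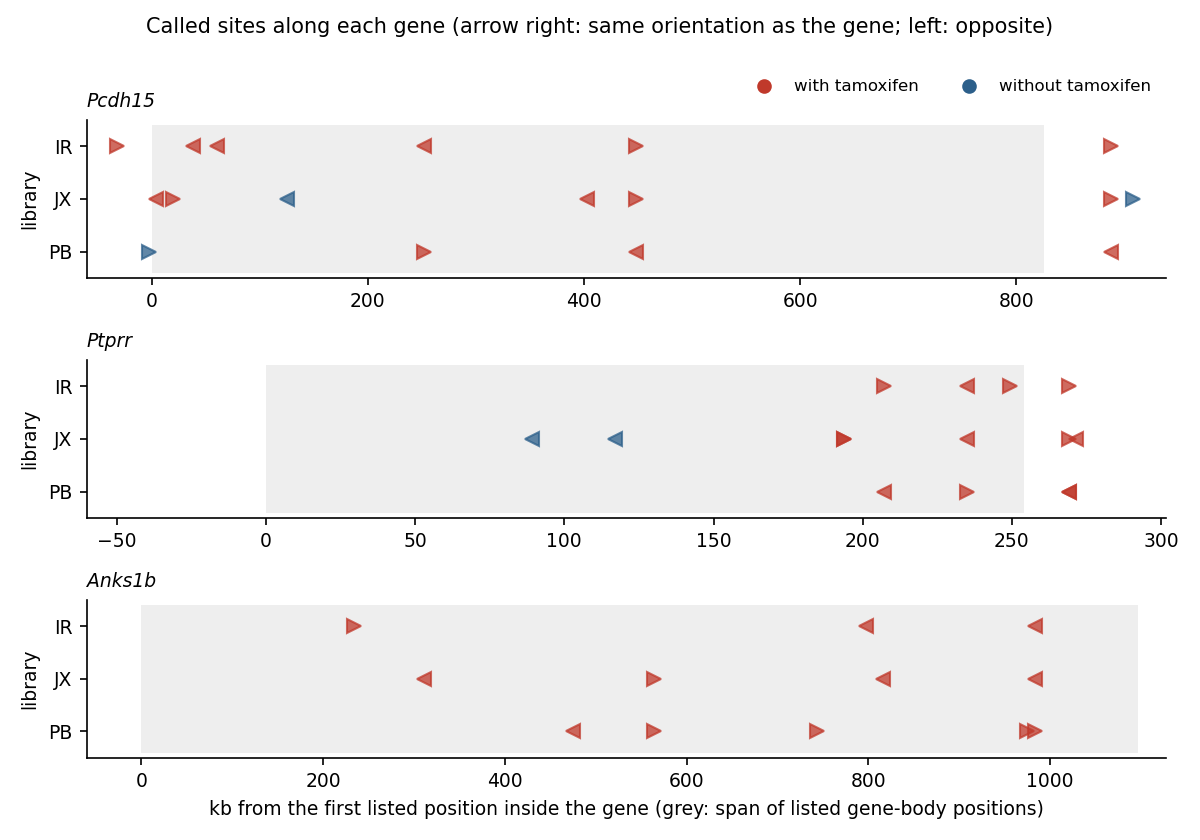
Called sites along Pcdh15, Ptprr and Anks1b, in kb from the first listed position inside each gene, by kind of library. Grey marks the span of listed gene-body positions (826.1, 254.0 and 1097 kb), arrows point right for the same and left for the opposite orientation, and colour gives the arm. Red Ptprr IR sites start 207.0 kb into the gene, and blue Ptprr JX sites lie at 89.2 and 117 kb.

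The 3 genes lie in the part of chromosome 10 outside the dense hop region. With a chromosome 10 donor, the 1 Mb bin from 107 to 108 Mb, which holds the hop centre, had 100 called IR sites, and the next densest bin had 22. Their middles are 33.3 Mb (Pcdh15), 17.1 Mb (Anks1b) and 8.58 Mb (Ptprr) from the centre. In the 90 tumours with a chromosome 10 donor, called IR sites numbered 19.5 per Mb within 5 Mb of the centre, 2.01 per Mb on the rest of the chromosome and 0.504 per Mb on chromosomes other than 7 and 10. The gene bodies had 4.84 (Pcdh15, 4 sites), 11.8 (Ptprr, 3 sites) and 2.74 (Anks1b, 3 sites) per Mb, all above the average of the distant part, as genes chosen for their hits must be. With a chromosome 7 donor, the rest of chromosome 10 had 0.2 per Mb over 29 tumours, and chromosomes other than 7 and 10 had 0.181. These densities are sums over tumours, so those of the 90 and the 29 tumours are not on 1 scale.

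**Figure D4:**
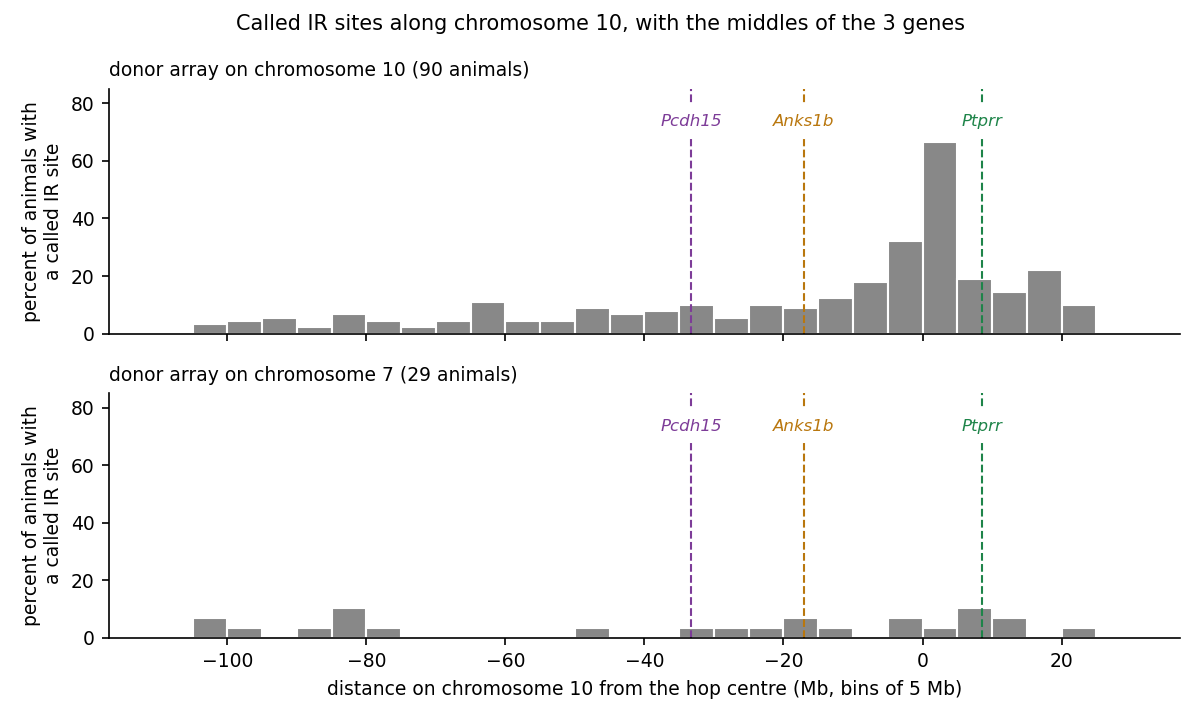
Percent of tumours with a called IR site in each 5 Mb bin of chromosome 10, by distance from the hop centre in Mb, for 90 tumours with a donor array on chromosome 10 and 29 with one on chromosome 7. Dashed lines mark the middles of the 3 genes, which stand outside the peak at the centre (60 of the 90 chromosome 10 donor tumours had a site in the bin from 0 to 5 Mb, and 9 in the bin that holds the middle of Pcdh15).

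Of 20 chromosome 10 genes hit in at least 3 animals in IR, 11 had all their sites over 5 Mb from the centre. Pcdh15 (5 animals with tamoxifen and 0 without) and Tmcc3 (4 and 1) were hit in the most animals. Gm8633 (3 and 0) shared the pattern of the 3 genes, with hits with tamoxifen alone. The other distant genes were hit in both arms: 1700010J16Rik and Fam19a2 in 3 and 1 animals each, and Atp2b1 (a plasma membrane calcium pump), Ctnna3 (an alpha-catenin), Grip1 (a glutamate receptor scaffold) and Plxnc1 (a semaphorin receptor) in 2 and 1 each.

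Hits were tested by donor chromosome, which the rule did not use, although the genes were chosen on chromosome 10. None of the 3 genes passed a two-sided Fisher's exact test. In IR, Pcdh15 was hit in 4 of 90 tumours with a chromosome 10 donor and 1 of 29 with a chromosome 7 donor (adjusted p = 1.0), Ptprr in 4 and 0 (Fisher's exact p = 0.571, adjusted p = 0.914) and Anks1b in 3 and 0 (adjusted p = 1.0). All JX and PB hits credited to the 3 genes were in chromosome 10 donor tumours, and the lowest values were Fisher's exact p = 0.334 for Ptprr in JX (6 and 0, adjusted p = 1.0) and 0.333 for Anks1b in PB (5 and 0, adjusted p = 0.883). With so few hits no gene could pass in that direction, as 0.333 was the smallest p that 5 hits allowed. The test called 5 of 40 genes in IR (12.5%), 0 of 244 in JX (0.0%, with 11 at an unadjusted p under 0.05) and 4 of 55 in PB (7.27%).

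Every position with at least 1 count, called or not, gave a finer measure. In IR, all 3 genes held more listed sites in tumours with a chromosome 10 donor. Per 1000 listed IR sites of a tumour, Pcdh15 held 0 to 18.7 (median 0.884) with a chromosome 10 donor and 0 to 1.36 (median 0.393) with a chromosome 7 donor. Ptprr held 0 to 5.94 (median 0.497) and 0 to 1.17 (median 0.224). Anks1b held 0 to 2.12 (median 1.11) and 0 to 1.54 (median 0.507). The ranges overlapped for each gene. JX and PB were not tested in this way. Summed over tumours, listed JX sites per 1000 with a chromosome 10 and 7 donor were 0.348 and 0.217 in Pcdh15, 0.272 and 0.246 in Ptprr and 0.436 and 0.293 in Anks1b. A JX count in Pcdh15 was present in 65.6% and 72.4% of tumours by donor, and in Ptprr in 75.6% and 75.9%. Listed PB sites per 1000 were 1.12 and 0.319 in Pcdh15, 0.576 and 0.228 in Ptprr and 1.20 and 0.468 in Anks1b.

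In edgeR's quasi-likelihood test over 1851 genes, the log2 fold of listed sites (chromosome 10 over chromosome 7 donor, 90 against 29 tumours) was 1.11 for Pcdh15 (SE 0.27, adjusted p = 0.00109), 0.96 for Ptprr (SE 0.26, adjusted p = 0.00258) and 0.81 for Anks1b (SE 0.20, adjusted p = 0.00109). This test was chosen after Fisher's test had called none of the 3 genes and after the medians by donor had been seen. Higher numbers with a chromosome 10 donor were called for 169 genes (9.13%). Of the 242 tested genes of chromosome 10 over 5 Mb from the centre, 107 (44.2%) were higher with a chromosome 10 donor, with a median log2 fold of 0.78. The 3 genes are among these 107. Within 5 Mb of the centre 31 of 33 were higher (median 1.38), and on chromosomes other than 7 and 10 it was 31 of 1432 (median 0.04). Leaving out the 9 tumours whose called IR sites chose the genes gave 0.85, 0.96 and 0.80 (edgeR adjusted p = 0.00274, 0.00327 and 0.00215).

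Within both arms the medians kept this order. With tamoxifen, chromosome 10 and 7 donors had 0.913 and 0.592 listed sites per 1000 in Pcdh15, 0.522 and 0.215 in Ptprr and 1.19 and 0.493 in Anks1b. Without tamoxifen the medians were 0.813 and 0.287, 0.455 and 0.230, and 0.959 and 0.647. Listed IR sites were thus present in the 3 genes in tumours of both arms: with tamoxifen 71 of 72 had one in Pcdh15, 65 in Ptprr and 68 in Anks1b, and without it 45, 45 and 46 of 47.

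**Figure D5:**
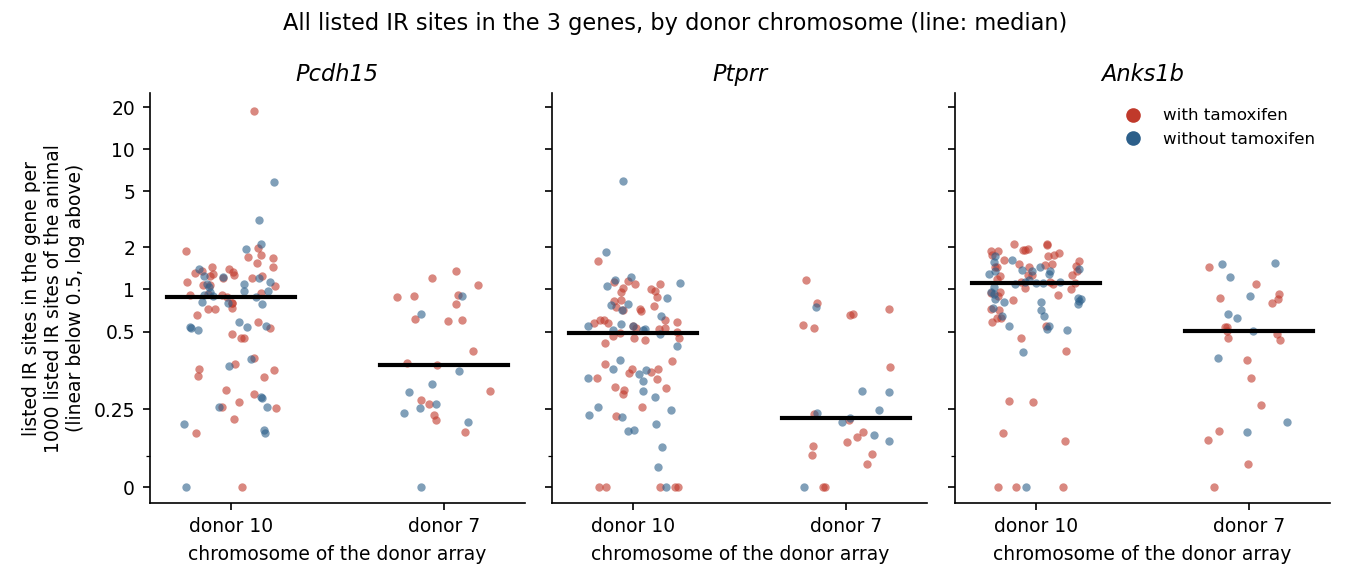
Listed IR sites in each gene per 1000 listed IR sites of the animal, by chromosome of the donor array; the axis is linear below 0.5 and logarithmic above. Points are animals, red with and blue without tamoxifen, and lines are medians, which are higher with a chromosome 10 donor for each gene (0.884 against 0.393 for Pcdh15).

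A few tumours held dense groups of low-count sites in the genes. Tumour B had 163 listed IR sites in Pcdh15, 18.7 per 1000, with a median of 17.0 counts each. Within 250 kb of its called site at 73322543, whatever gene the table lists, it had 110 listed IR sites, 12.6 per 1000 against a median of 0.321 over the 119 tumours. Tumour K, without tamoxifen and with no called IR site in Ptprr, had 54 listed Ptprr sites (5.94 per 1000) of a median of 1 count. Tumour F, with 76 sites within 250 kb of its called Ptprr site, was second there (3.64 per 1000 against a median of 0.539). The surroundings of the other 11 called IR sites ranked from 14 to 73 of 119.

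These groups were partly shared between animals of a lane. Of the 30 Pcdh15 sites of the tumour that came next to B, 27 lay within 10 bp of a site of tumour B in the same lane, and 52 of the 54 Ptprr sites of tumour K lay within 10 bp of a site of an animal with no usable arm label, in lane 9 as well. Over all listed IR sites of the 119 tumours, 50.1% were listed in 1 animal. With a chromosome 10 and 7 donor this share was 49.7% and 50.6% in Pcdh15, 40.0% and 33.7% in Ptprr and 51.4% and 41.8% in Anks1b. Most listed Ptprr sites were thus shared between animals. Counting sites of 1 animal alone, the log2 folds by donor were 1.23, 1.39 and 1.32 for Pcdh15, Ptprr and Anks1b (edgeR adjusted p = 0.000751, 7.67e-05 and 7.91e-06, 494 genes tested). Without the 3 tumours with the most listed sites per 1000 in each gene they were 0.84, 0.83 and 0.81 (adjusted p = 0.00205, 0.00374 and 0.00126).

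The genes most like each of the 3 were sought by the Jaccard index of the animals hit in IR (shared animals over animals hit in either gene), over 39 other genes. For Pcdh15 they were 1700010J16Rik and Pard3b (0.286 each) and Pawr (0.273). For Ptprr they were Anks1b (0.4), Fam19a2 (0.333) and Nav3 (0.25), and for Anks1b they were Ptprr (0.4), Lin7a (0.286) and Ctnna3 (0.2). Tumour D was among the shared animals in each of these pairs, and Ptprr and Anks1b shared tumours D and F.

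Lists of genes related to the 3 by function or family held the following hits. Of 14 genes of the tip link and Usher syndrome, IR hits were found in 2, Pcdh15 and Cdh23 (the cadherin that pairs with protocadherin-15, 1 animal), JX hits in 3 and PB hits in 3. Of 23 protein tyrosine phosphatases, 9 had IR hits, 11 had JX hits and 10 had PB hits, led by Ptprq, also on chromosome 10, with 7, 8 and 7 animals. Of 14 measured genes of the postsynaptic density, 3 had IR hits, 6 had JX hits and 6 had PB hits, where Dlg2, a scaffold related to PSD-95 on chromosome 7, had 2, 5 and 4 animals. Over all genes the shares hit were 6.35% (IR), 16.4% (JX) and 7.83% (PB). Each list counts 1 of the 3 genes, which was chosen for its IR hits, so no enrichment is read from these numbers. The median number of animals was 0 for all genes and for each list. None of the tested list members passed the donor test in any kind of library. Toward a chromosome 10 donor none had enough hits to pass. All 8 JX animals of Ptprq had that donor, at Fisher's exact p = 0.197.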

How the data were processed

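Insertion sites were counted in genomic DNA of Lazy Piggy medulloblastomas, sheared, joined to splinkerette adaptors and amplified, per the labels' protocols. The values are the authors' deposited raw counts, given for each position in each library, with the gene, gene part and orientation that their table lists. The submitters' processing notes name mm9 as the build. No source used here names an aligner or a counting rule. Arm, donor chromosome and lane came from the authors' sample sheet. Counts of an animal were added over ends and lanes for each kind of library, positions within 10 bp were merged in each animal, and where several animals called the same site it went to the animal with the highest share.

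The donor chromosome was tested for genes with 3 or more hit animals by two-sided Fisher's exact tests, and genes with at least 6 sites by orientation, with Benjamini-Hochberg adjustment per kind of library at 0.05 (scipy 1.17.1). Listed IR sites per gene and animal were tested with edgeR 4.0.16 (R 4.3.3), scaled by the animal's total and over genes with at least 119 sites. This test and its alternatives were added after the other tests and the medians by donor were seen. The tests were tried on simulated data. The 3 genes and the related gene lists were chosen with earlier results of these data known. The genes named are the 3, for each the 3 with the highest Jaccard index, the distant chromosome 10 genes, and up to 4 hit most in each list. PCR counts are not independent molecules, so counting intervals leave that out. Alternatives covered both thresholds, the merging distance, gene bodies, spread positions, crediting and tamoxifen alone.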

Additional observations from a re-analysis of the deposited data

Results flagged for a closer look

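In the 8 animals with no usable arm label, which entered no comparison, listed IR sites in Ptprr reached 11.6 per 1000 listed sites in 1 animal (237 of 20389), above the highest control tumour or control DNA at 0.624. The median of the 8 was 0.326. The animal at 11.6 per 1000 was in lane 9, and 52 of the 54 Ptprr sites of tumour K lay within 10 bp of its sites. In Pcdh15 the highest of these animals had 1.05 per 1000 (19 of 18019), above the highest control at 0.806 (4 of 4966). For Anks1b the highest value in these animals, 1.33, was below the highest control, 1.41. None of these animals had a called site in the 3 genes.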

How the results depend on the processing

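The share required of a called site moved most counts. At 0.1% of the highest site, animals with a called IR site with and without tamoxifen numbered 15 and 6 for Pcdh15, 11 and 1 for Ptprr and 14 and 4 for Anks1b, and at 5% those with tamoxifen numbered 1, 2 and 1. For any of the 3 genes, JX gave 28 and 14 at 0.1% and 5 and 0 at 5%, and PB gave 20 and 10, and 4 and 0. With sites in gene bodies alone, PB gave 0 without tamoxifen. Genes called by donor chromosome at 0.1% numbered 11 (IR), 9 (JX) and 7 (PB), and at 5% 2 (IR) and 1 (PB). They numbered 2 in IR and 0 in PB in gene bodies, 2 in JX at 100 counts, 4 in JX and 2 in PB without spread positions, and 1 in JX with every calling animal credited. With tamoxifen alone they were 2 (IR), 1 (JX) and 1 (PB), and with genes hit in at least 2 animals 3 (IR) and 0 (PB). The orientation test called 0 genes in IR at 0.1%. The donor direction turned for Pcdh15 in IR with merging at 100 bp and without tumour D, for Ptprr in IR and Pcdh15 in JX at 0.1%, and for Ptprr in PB with every calling animal credited, each at an adjusted p of 1.0. The cause was not tested. In the test of listed sites, 291 genes were called, 157 with sites of 1 animal alone (494 genes tested) and 769 with genes of at least 10 sites (16272 tested). The log2 folds of the 3 genes stayed past the threshold in all 8 alternatives run, among them lane as a covariate (0.83 for Pcdh15, 1.02 for Ptprr, 0.82 for Anks1b). All 9 lanes held both donors, so the planned restriction to such lanes equals the main setting. No paired analysis was possible because the sources used here give no numbers that pair animals across arms or donors. Lane entered as a covariate in the test of listed sites alone.

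Few hits per gene, unequal depth between kinds of library and positions shared within lanes limit what these counts can show. The arms are unequal, at 72 and 47 animals.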
